A study of Homo sapiens with 4 samples.

Results

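The spliceosome genes described here are the 50 gene symbols that begin with SNRP, SF3A, SF3B, PRPF or U2AF, or with LSM and a digit, out of 19732 symbols in the files. They were measured by poly(A) RNA sequencing in 5-fluorouracil-resistant cells of HCT-8, an established line from a human colorectal tumour. Cells of the 2 METTL14 overexpression libraries had received a METTL14 plasmid, and cells of the 2 control libraries a negative control plasmid. Both groups also received 100 ug/mL of cycloheximide, which stops ribosomes during elongation, and the work is described as 2 independent experiments. No other genotype, drug-sensitive line or cells without cycloheximide are compared here, and a bulk library cannot tell fewer cells from less RNA per cell. Proteins whose symbols begin with SNRNP fall outside the symbol pattern and are given at the end.

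Library totals were 19206661 and 19829158 counts with METTL14 overexpression and 20161082 and 19247784 counts in the controls. The METTL14 transcript had 390 and 421 CPM (counts scaled to a common library size) with its plasmid, against 24.6 and 30.7 CPM in the controls, a log2 fold change of 3.88 (SE 0.141, edgeR adjusted p = 7.33e-05). Of 10 colorectal epithelial markers, 10 reached a mean of 1 CPM with METTL14 overexpression and 9 in the controls. Of these 10, 4 were higher, among them CDH17 (log2 fold change 1.87, edgeR adjusted p = 9.2e-05), and 3 were lower, among them KRT8 (-0.90, edgeR adjusted p = 0.0065) and KRT18 (-0.92, edgeR adjusted p = 0.0106). Of 5 leukocyte markers, 2 reached a mean of 1 CPM with METTL14 overexpression and 1 in the controls. In the same order, 3 and 4 of 5 fibroblast markers, 1 and 0 of 5 endothelial markers, and 1 and 1 of 5 neural markers reached that mean. The summed leukocyte markers lay between 2.83 and 3.66 CPM with METTL14 overexpression, against 1.61 to 2.21 CPM in the controls, CD3E being at 0 in every library. The summed neural markers had 125.8 and 126.1 CPM with METTL14 overexpression, against 61.5 and 58.2 CPM in the controls, nearly all of it MBP. The summed fibroblast markers had 19.4 and 17.7 CPM with METTL14 overexpression, against 12.2 and 15.4 CPM in the controls. PDGFRB (1.38, edgeR adjusted p = 0.00318) and COL1A1 (0.50, edgeR adjusted p = 0.046) were higher. COL3A1 (-0.90, edgeR adjusted p = 0.100), COL1A2 (-0.79, edgeR adjusted p = 0.13) and DCN (0.55, edgeR adjusted p = 0.354) were not called. The part of any marker list in the results was not tested. The 2 controls lay farther apart than the 2 METTL14 libraries did, with a chi-square over its degrees of freedom of 3.29 between METTL14 libraries and 28.8 between controls, and transcripts of the mitochondrial genome took 9.85 and 10.2% of counts with METTL14 overexpression, against 5.99 and 6.26% in the controls. Nothing in the labels ties a replicate number to a culture, so p-values measure the spread between these libraries.

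Introns are removed from nuclear transcripts by small nuclear ribonucleoproteins (snRNPs), each built on a short RNA. The U1 particle binds the 5′ splice site, and U2AF and the U2 particle recognise the 3′ splice site and the branch point. A joint particle of U4, U6 and U5, the tri-snRNP, then enters, and after rearrangement U2, U6 and U5 form the catalytic centre. The RNAs of U1, U2, U4 and U5 are each encircled by a ring of Sm proteins, and U6 carries a related ring of LSM proteins. The snRNAs themselves lack a poly(A) tail, so only the mRNAs of the protein components are described.

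With METTL14 overexpression most of these genes were lower. Of 49 that were tested, 38 were lower, 2 were higher and 9 were not called (quasi-likelihood test of edgeR, with p adjusted by the Benjamini-Hochberg method and a threshold of 0.05). Among all 12700 genes tested 28.1% were lower and 27.0% higher by the same rule. A change beyond 1.5-fold was called for 22 of the 49, each time lower, where the same test called 10.7% of all genes lower and 11.1% higher. The median log2 fold change of the 49 genes was -0.72, against -0.01 over all genes tested. Both METTL14 libraries lay below both controls for 44 of the 49 and above both for 2, where 40.0 and 39.8% of all genes were separated in these directions. The rows of these symbols took 0.388 and 0.384% of all counts with METTL14 overexpression, against 0.609 and 0.558% in the controls. Where a group is left with 1 library, that library is assumed to vary like the other group. The METTL14 libraries lay closer together than the controls. Calls gained without a control, or lost without a METTL14 library, may therefore follow from this assumption. Of the 40 calls, 28 held with each library left out in turn and 12 were lost without at least 1 library. Those 12 are pointed out below.

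**Figure D1:**
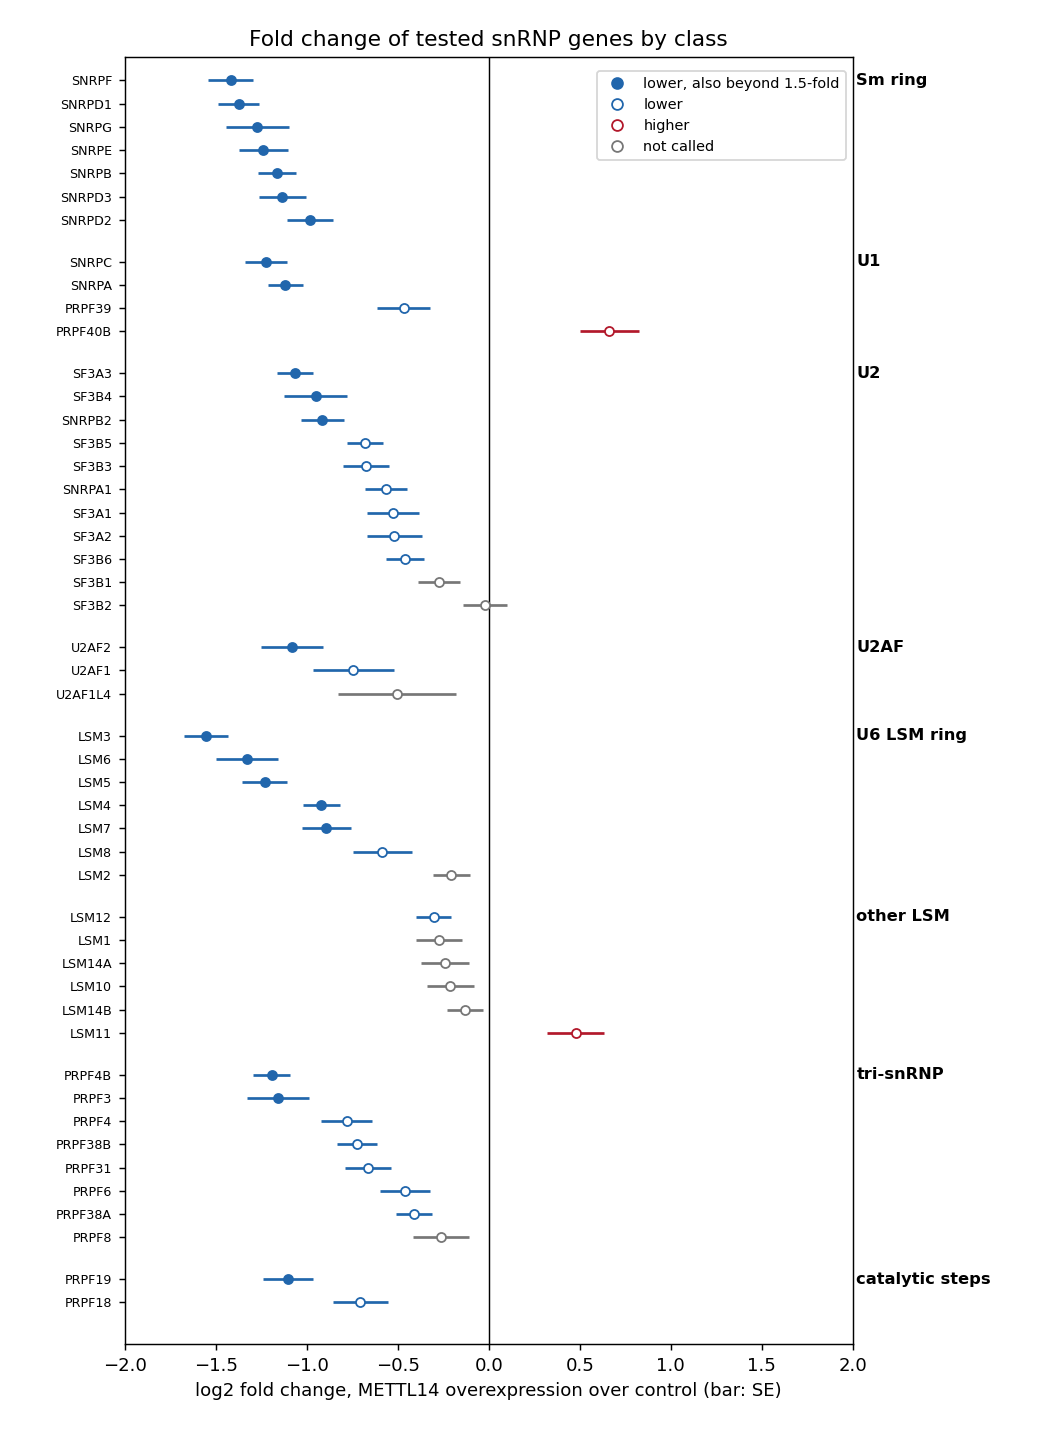
The log2 fold change of METTL14 overexpression over control (x axis, with its SE as a bar) is plotted for the tested genes described here, grouped by class. Filled points are lower beyond 1.5-fold, and PRPF40B and LSM11 are the 2 genes to the right of 0 that passed the test.

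Promoter windows from RefSeq (GRCh38.p14, 250 bases before to 50 bases after the annotated start, 1 window a gene, that with the lowest coordinate) were found for 41 of the 50 genes. The letters CCGGAAG, the core bound by factors of the ETS family, were present on either strand in 17 of the 41 (41.5%), against 14.2% of 15235 windows of genes in the files. The paired half-sites of the factor NRF1 were present in 10 (24.4%, against 11.6%) and AAGATGGCG of YY1 in 4 (9.76%, against 2.73%). CCAAT (36.6%, against 36.3%), the GC box GGGCGG (58.5%, against 58.1%) and the E2F-type TTCCCGC (12.2%, against 8.51%) were found at closer shares, and the E-box CACGTG (2.44%, against 8.55%) and TATAAA (2.44%, against 9.84%) at lower ones. The motifs were chosen after the fold changes were known, so their shares are a description. The 15235 windows include genes with little or no expression, and no share was counted among expressed genes alone. Both strands were searched, and GGGCGG can share bases with the reverse complement of TTCCCGC. The ETS core was found in 16 of 31 windows of genes that were lower, in 1 of 7 of genes not called and in 0 of 2 of genes that were higher. No such split was made over all genes, and a tie between the core and the fall was not tested. The 100 bases before the start are shown, picked among windows that hold the core, for 4 genes that fell and for SF3B2, which was not called and carries the core as well. Capitals mark the ETS core.
SNRPB, chr20:2470790-2470889, minus strand: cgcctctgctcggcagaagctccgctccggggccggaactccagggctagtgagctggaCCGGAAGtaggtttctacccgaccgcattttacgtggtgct
SNRPB2, chr20:16729926-16730025, plus strand: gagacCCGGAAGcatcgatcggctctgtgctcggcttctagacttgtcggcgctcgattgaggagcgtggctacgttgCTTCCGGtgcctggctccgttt
SF3A1, chr22:30356895-30356994, minus strand: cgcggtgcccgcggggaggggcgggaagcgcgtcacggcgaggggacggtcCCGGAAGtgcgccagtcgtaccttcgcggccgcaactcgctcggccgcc
U2AF2, chr19:55654935-55655034, plus strand: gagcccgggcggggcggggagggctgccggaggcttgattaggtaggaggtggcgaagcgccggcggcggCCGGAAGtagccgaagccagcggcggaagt
SF3B2, chr11:66052264-66052363, plus strand: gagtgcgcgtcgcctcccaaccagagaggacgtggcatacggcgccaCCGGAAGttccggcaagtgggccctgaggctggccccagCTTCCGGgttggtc
The core begins 41 bases before the start of SNRPB, 49 before that of SF3A1 and 30 before that of U2AF2. SNRPB2 has it 95 and 22 bases before the start, and SF3B2 53 and 14 bases before. These distances are from the RefSeq start and depend on that choice. GENCODE has these genes begin farther upstream, at 2470853 for SNRPB, 30356947 for SF3A1, 55654146 for U2AF2, 16729961 for SNRPB2 and 66050729 for SF3B2. By those starts the cores lie inside the genes, except the SNRPB2 core 95 bases before the RefSeq start.

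The Sm ring is made of 7 proteins that assemble in a fixed order around the snRNA, and all 7 genes were lower beyond 1.5-fold. SNRPD1 had 36.4 and 42.8 CPM with METTL14 overexpression, against 101.5 and 104 CPM in the controls (log2 fold change -1.37, SE 0.113, edgeR adjusted p = 0.000159). SNRPF had 17.2 and 19.4 CPM with METTL14 overexpression, against 46.5 and 51.4 CPM in the controls (-1.42, SE 0.126, edgeR adjusted p = 0.00019). SNRPB, which encodes the B and B′ proteins and was the most abundant of the ring, had 129 and 128 CPM with METTL14 overexpression, against 306 and 269 CPM in the controls (-1.16, SE 0.106, edgeR adjusted p = 0.000206). In each of these genes both METTL14 libraries lay far below both controls, and the libraries of a group were close together. SNRPE had 15.2 and 16.9 CPM with METTL14 overexpression, against 35.2 and 40.5 CPM in the controls (-1.24, SE 0.133, edgeR adjusted p = 0.000341). SNRPG had a log2 fold change of -1.27, SNRPD3 one of -1.13 and SNRPD2, the smallest change of the ring, one of -0.98. No gene of the ring had libraries of one group reaching the other, and the summed level of the ring was 304 and 329 CPM with METTL14 overexpression, against 731 and 713 CPM in the controls.

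SNRPD3 stands in 2 rows of the files, both lower. The row used for the count above had 40.4 and 42.1 CPM with METTL14 overexpression, against 101 and 80.6 CPM in the controls. The other row had 33.0 and 30.9 CPM with METTL14 overexpression, against 76.7 and 77.9 CPM in the controls (log2 fold change -1.27, SE 0.104, edgeR adjusted p = 0.000155). The first row shares 321 exon bases with GUCD1 on the other strand, which was not called (-0.09, edgeR adjusted p = 0.547). It also shares 306 exon bases with GGT1 on the same strand, which had 3.75 and 1.63 CPM with METTL14 overexpression, against 1.09 and 0.975 CPM in the controls, and was higher (1.37, edgeR adjusted p = 0.0405). Both SNRPD3 rows together gave a log2 fold change of -1.19 (edgeR adjusted p = 0.000149). SNRPN, an imprinted relative of SNRPB used mainly in neurons, had 1 and 0 counts with METTL14 overexpression and 0 and 1 counts in the controls and was not tested, and the 2 rows of SNURF, which shares its locus and exons, held 1 count in all.

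Per kilobase of the principal transcript, the ring's genes kept one order in both groups. In METTL14 overexpression libraries SNRPB averaged 111 CPM per kilobase, SNRPD2 55.6, SNRPG 36.5, SNRPD3 23.4, SNRPE 17.02, SNRPF 13.2 and SNRPD1 8.07. In the controls SNRPB averaged 249.4 CPM per kilobase, SNRPD2 109.9, SNRPG 88.2, SNRPD3 51.4, SNRPE 40.2, SNRPF 35.2 and SNRPD1 20.9. The principal transcript annotated for SNRPD1 is 4909 bases long, and its place in the order depends on that length. SNRPD3 enters with 1 of its 2 rows, and its place depends on that choice. Its 2 rows together had 73.5 and 73.0 CPM with METTL14 overexpression, against 177 and 158.5 CPM in the controls.

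**Figure D2:**
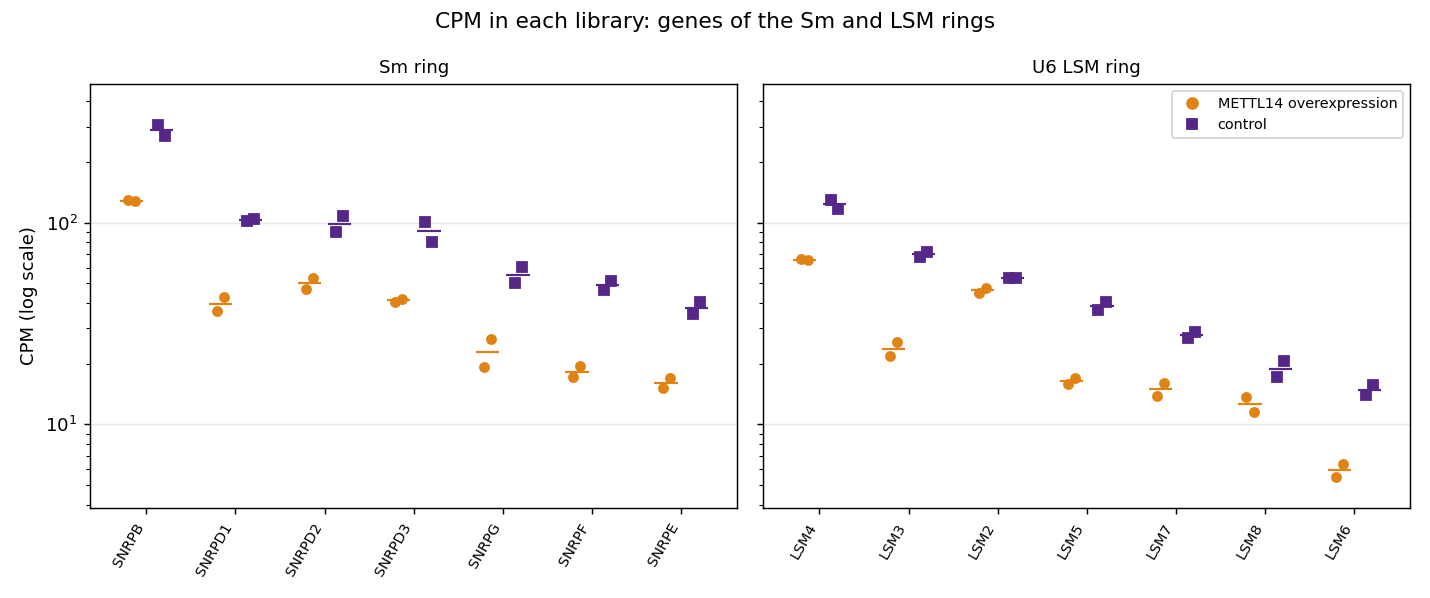
CPM on a log scale (y axis) is plotted for each library and gene of the Sm ring (left) and of the LSM ring of U6 (right), with a line at the mean of each group. The METTL14 overexpression points lie below the control points for every gene shown, with the smallest gap at LSM2.

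The LSM ring of U6 holds LSM2 to LSM8. LSM2 to LSM7 are shared with a cytoplasmic ring, and LSM8 is the subunit found in the nuclear ring only. Of the 7 genes 6 were lower, 5 of them beyond 1.5-fold. LSM3 changed most of all 49 genes, with 21.8 and 25.7 CPM with METTL14 overexpression, against 67.9 and 71.5 CPM in the controls (log2 fold change -1.55, SE 0.123, edgeR adjusted p = 0.000144). LSM5 had 15.9 and 16.95 CPM with METTL14 overexpression, against 36.7 and 40.5 CPM in the controls (-1.23, SE 0.122, edgeR adjusted p = 0.000265). In each of these genes the groups were far apart and the libraries of a group close together. LSM4 had 65.8 and 65.0 CPM with METTL14 overexpression, against 129.7 and 117.6 CPM in the controls (-0.92, SE 0.101, edgeR adjusted p = 0.000374). LSM6, the least abundant of the ring, had 5.50 and 6.32 CPM with METTL14 overexpression, against 14.0 and 15.7 CPM in the controls (-1.33, SE 0.169, edgeR adjusted p = 0.000661). LSM7 had a log2 fold change of -0.89.

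LSM8 and LSM2 moved less. LSM8 had a log2 fold change of -0.58 (SE 0.162, edgeR adjusted p = 0.0182), and its call was lost without METTL14 overexpression replicate 2 (-0.46, edgeR adjusted p = 0.176). LSM2 had 44.95 and 47.6 CPM with METTL14 overexpression, against 53.4 and 53.3 CPM in the controls. Its libraries did not overlap, yet the change was not called (-0.21, SE 0.103, edgeR adjusted p = 0.128). LSM2 was at -0.20 without control replicate 1 and at -0.21 without control replicate 2. LSM3 shares 318 exon bases with XPC on the other strand, which had 55.6 and 54.5 CPM with METTL14 overexpression, against 31.0 and 42.3 CPM in the controls, and the part of such reads in LSM3 was not tested. Without a stated strand setting, reads of a gene and its antisense partner cannot be told apart.

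Of the 6 other LSM genes 1 was lower and 1 higher, and none was called beyond 1.5-fold. No test was made against the ring of U6. More of these genes passed without control replicate 1, but that fit took its spread from the METTL14 pair alone. That fit does not show that the count depends on this control. LSM1 takes the place of LSM8 in the cytoplasmic ring, which promotes decapping and decay of mRNA, and had 22.3 and 23.3 CPM with METTL14 overexpression, against 25.4 and 29.7 CPM in the controls (log2 fold change -0.27, SE 0.129, edgeR adjusted p = 0.109). LSM10 and LSM11 replace SNRPD1 and SNRPD2 in the ring of U7, the snRNP that processes the 3′ ends of histone mRNAs. LSM10 had 23.1 and 20.5 CPM with METTL14 overexpression, against 24.1 and 26.4 CPM in the controls (-0.21, SE 0.128, edgeR adjusted p = 0.198). LSM11 had 19.4 and 17.9 CPM with METTL14 overexpression, against 14.8 and 11.9 CPM in the controls, and rose (0.48, SE 0.157, edgeR adjusted p = 0.0347). The pair of U7 genes thus differed in sign, and the difference itself was not tested.

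The call of LSM11 was lost without METTL14 overexpression replicate 1 (log2 fold change 0.42, edgeR adjusted p = 0.227), without METTL14 overexpression replicate 2 (0.54, edgeR adjusted p = 0.109) and with DESeq2 (0.49, adjusted p = 0.0582). LSM12, a protein with an LSM domain that joins neither ring, had 113.9 and 120.4 CPM with METTL14 overexpression, against 146 and 143 CPM in the controls (-0.30, SE 0.0955, edgeR adjusted p = 0.0303). Its call was lost without METTL14 overexpression replicate 1 (-0.26, edgeR adjusted p = 0.383), without replicate 2 of that group (-0.34, edgeR adjusted p = 0.245) and with DESeq2 (-0.29, adjusted p = 0.0592). LSM14A, a component of processing bodies, had 64.6 and 76.2 CPM with METTL14 overexpression, against 75.4 and 90.7 CPM in the controls, and its groups overlapped (-0.24, SE 0.132, edgeR adjusted p = 0.163). LSM14B had 57.4 and 56.5 CPM with METTL14 overexpression, against 64.0 and 60.9 CPM in the controls (-0.13, SE 0.0986, edgeR adjusted p = 0.288). Without control replicate 1, LSM1 was at -0.37, LSM14A at -0.36 and LSM10 at -0.27.

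Of the 5 genes of U1 and its partners 4 were lower, 3 of them beyond 1.5-fold, and 1 was higher. SNRPA, which binds a loop of U1 RNA, had 66.5 and 62.6 CPM with METTL14 overexpression, against 142 and 138 CPM in the controls (log2 fold change -1.12, SE 0.0973, edgeR adjusted p = 0.000183). SNRPC, which steadies U1 at the 5′ splice site, had 53.4 and 54.9 CPM with METTL14 overexpression, against 137 and 116 CPM in the controls (-1.22, SE 0.115, edgeR adjusted p = 0.000227). Both genes had METTL14 overexpression levels under 70 CPM and control levels above 100 CPM.

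PRPF40B, a homolog of a yeast U1 protein, went the other way, with 18.8 and 15.3 CPM with METTL14 overexpression, against 10.3 and 11.2 CPM in the controls (log2 fold change 0.66, SE 0.161, edgeR adjusted p = 0.0108). Its call was lost without METTL14 overexpression replicate 1 (0.51, edgeR adjusted p = 0.157). PRPF40B shares 2643 exon bases with FMNL3 on the other strand, whose level was 49.1 and 47.5 CPM with METTL14 overexpression, against 24.8 and 26.6 CPM in the controls. The part of FMNL3 reads in the rise was not tested. PRPF39, also a homolog of a yeast U1 protein, had 10.8 and 10.8 CPM with METTL14 overexpression, against 14.2 and 15.8 CPM in the controls (-0.47, SE 0.146, edgeR adjusted p = 0.0287). That call was lost without METTL14 overexpression replicate 1 (-0.47, edgeR adjusted p = 0.202), without replicate 2 (-0.46, edgeR adjusted p = 0.201), on library totals (-0.42, edgeR adjusted p = 0.0637) and with DESeq2 (-0.46, adjusted p = 0.093). PRPF39 shares 653 exon bases with FKBP3 on the other strand, which had 43.05 and 46.6 CPM with METTL14 overexpression, against 62.1 and 75.0 CPM in the controls.

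In U2 the genes were graded, with 9 of 11 lower, 3 of them beyond 1.5-fold, and 2 not called. SF3A3, a subunit of the SF3a complex that ties U2 to the branch site, had 97.3 and 99.2 CPM with METTL14 overexpression, against 214 and 197 CPM in the controls (log2 fold change -1.06, SE 0.0993, edgeR adjusted p = 0.000226). SNRPB2, which binds U2 RNA, had 27.8 and 31.8 CPM with METTL14 overexpression, against 57.7 and 54.7 CPM in the controls (-0.91, SE 0.118, edgeR adjusted p = 0.000683). SF3B4, a subunit of SF3b, had 63.0 and 57.2 CPM with METTL14 overexpression, against 138 and 94.8 CPM in the controls (-0.95, SE 0.175, edgeR adjusted p = 0.00321). The controls of SF3B4 were spread widely, and both still lay above the METTL14 libraries. SF3B5, the smallest subunit of SF3b here, had 53.0 and 49.5 CPM with METTL14 overexpression, against 83.1 and 81.1 CPM in the controls (-0.68, SE 0.0986, edgeR adjusted p = 0.00115).

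The SF3b subunits SF3B1 and SF3B2 were not called. SF3B1, the scaffold that holds the branch point helix, had 174 and 175 CPM with METTL14 overexpression, against 192 and 231 CPM in the controls (log2 fold change -0.28, SE 0.116, edgeR adjusted p = 0.0782). SF3B2, the partner of SF3B4, had 399.5 and 397 CPM with METTL14 overexpression, against 448 and 361 CPM in the controls, so that both METTL14 libraries fell between the controls (-0.02, SE 0.122, edgeR adjusted p = 0.892). SF3B2 was at 0.15 without control replicate 1 and at -0.17 without control replicate 2. SF3B1 was at -0.39 without control replicate 1. The remaining U2 genes lay between these ends, with SF3B3 at -0.68, SNRPA1, the partner of SNRPB2, at -0.57, SF3A1 at -0.53, SF3A2 at -0.52 and SF3B6, which touches the branch point adenosine, at -0.46. Calls were lost without METTL14 overexpression replicate 1 for SF3B6 (-0.43, edgeR adjusted p = 0.122) and SF3A2 (-0.50, edgeR adjusted p = 0.0607), and without replicate 2 for SF3B6 (-0.49, edgeR adjusted p = 0.0762), SF3A2 (-0.53, edgeR adjusted p = 0.0623) and SF3A1 (-0.48, edgeR adjusted p = 0.114).

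**Figure D3:**
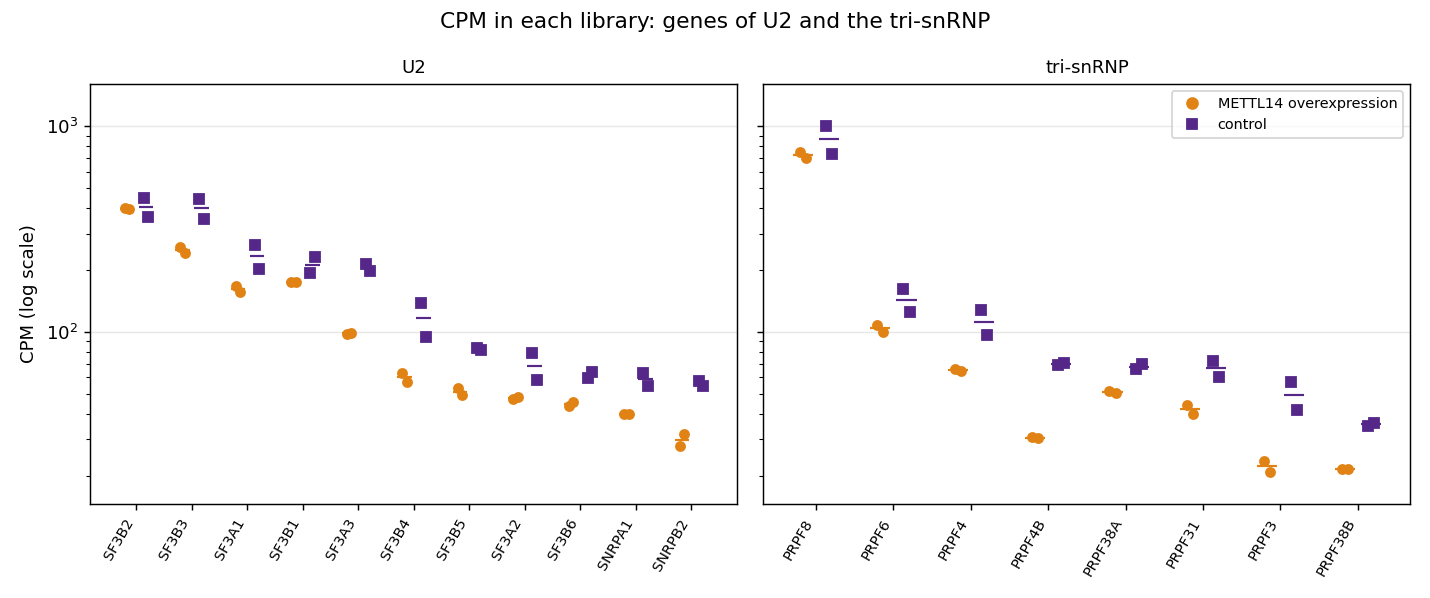
CPM on a log scale (y axis) is plotted for each library and gene of U2 (left) and of the tri-snRNP (right), with a line at the mean of each group. The METTL14 overexpression points fall between the 2 control points at SF3B2 and overlap them at PRPF8, and lie below both controls at the other genes shown.

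U2AF is the dimer that reads the polypyrimidine tract and the AG of the 3′ splice site. U2AF2, the large subunit, had 160 and 149 CPM with METTL14 overexpression, against 387 and 267 CPM in the controls (log2 fold change -1.08, SE 0.172, edgeR adjusted p = 0.00169). U2AF1, the small subunit, is listed at 2 loci of chromosome 21 (GRCh38, 43092956 to 43107587 and 6484623 to 6499261, both on the minus strand), the second named U2AF1L5 in GENCODE. The first had 25.6 and 42.9 CPM with METTL14 overexpression, against 61.0 and 53.9 CPM in the controls (-0.74, SE 0.222, edgeR adjusted p = 0.0245). The second had 22.3 and 9.83 CPM with METTL14 overexpression, against 45.1 and 51.9 CPM in the controls (-1.60, SE 0.328, edgeR adjusted p = 0.00585). The first locus held 499 and 868 counts and the second 434 and 199 counts in the METTL14 libraries, a near-even split in replicate 1 and mostly the first locus in replicate 2. The sums were 47.9 and 52.7 CPM with METTL14 overexpression, against 106 and 106 CPM in the controls (-1.07, edgeR adjusted p = 0.000191).

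The call of the first U2AF1 row was lost without control replicate 1 (log2 fold change -0.64, edgeR adjusted p = 0.542), without control replicate 2 (-0.83, edgeR adjusted p = 0.445) and without METTL14 overexpression replicate 1 (-0.42, edgeR adjusted p = 0.13). The split of reads between near-identical copies is uncertain, and the sum does not depend on it. U2AF1L4, a paralog of low level, had 1.39 and 1.78 CPM with METTL14 overexpression, against 2.13 and 2.36 CPM in the controls (-0.50, SE 0.325, edgeR adjusted p = 0.226). Its 2 rows summed gave a log2 fold change of -0.86 (edgeR adjusted p = 0.0309). The added row shares 1202 exon bases with IGFLR1 on the same strand, which was lower (-0.92, edgeR adjusted p = 0.0071). The row used above shares 332 exon bases with PSENEN on the other strand, also lower (-0.45, edgeR adjusted p = 0.011). PSENEN averaged 39.5 CPM with METTL14 overexpression and 54.0 CPM in the controls. The part of such reads in U2AF1L4 was not tested.

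Among 8 genes of the tri-snRNP and of the complex it joins, 7 were lower, 2 of them beyond 1.5-fold. PRPF4B, a kinase that acts on spliceosomal proteins, had 30.7 and 30.3 CPM with METTL14 overexpression, against 68.7 and 70.8 CPM in the controls (log2 fold change -1.19, SE 0.103, edgeR adjusted p = 0.000179). PRPF3, a U4/U6 protein, had 23.5 and 20.9 CPM with METTL14 overexpression, against 57.1 and 41.8 CPM in the controls (-1.16, SE 0.169, edgeR adjusted p = 0.00117). PRPF4, which binds PRPF3, had 66.1 and 64.5 CPM with METTL14 overexpression, against 127 and 97.1 CPM in the controls (-0.78, SE 0.14, edgeR adjusted p = 0.00286). For PRPF3 and PRPF4 the controls differed more from each other than the METTL14 libraries did. PRPF38B had 21.6 and 21.4 CPM with METTL14 overexpression, against 34.9 and 36.1 CPM in the controls (-0.72, SE 0.112, edgeR adjusted p = 0.00149). PRPF31, which binds U4 RNA, was at -0.66, PRPF6, a bridge between U5 and U4/U6, at -0.46, and PRPF38A at -0.41.

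PRPF8, the U5 protein that forms the catalytic cavity of the spliceosome and the most abundant of the 50 genes, had 746 and 702 CPM with METTL14 overexpression, against 1008 and 729 CPM in the controls. Its groups overlapped and it was not called (log2 fold change -0.26, SE 0.155, edgeR adjusted p = 0.188). Control replicate 1 set the higher mean, and without control replicate 2 PRPF8 was at -0.48. Calls were lost for PRPF38A without METTL14 overexpression replicate 1 (-0.43, edgeR adjusted p = 0.119) and replicate 2 (-0.39, edgeR adjusted p = 0.158), and for PRPF6 without replicate 1 (-0.52, edgeR adjusted p = 0.0607) and replicate 2 (-0.40, edgeR adjusted p = 0.174).

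PRPF19 and PRPF18 act at the catalytic stage and both were lower. PRPF19, a ubiquitin ligase and the core of the complex that activates the spliceosome, had 136.7 and 130.3 CPM with METTL14 overexpression, against 323 and 251 CPM in the controls (log2 fold change -1.10, SE 0.135, edgeR adjusted p = 0.000566), beyond 1.5-fold. PRPF18, a factor of the second step, had 10.7 and 11.8 CPM with METTL14 overexpression, against 17.01 and 19.6 CPM in the controls (-0.71, SE 0.149, edgeR adjusted p = 0.00593). The PRPF18 call was lost without METTL14 overexpression replicate 1 (-0.64, edgeR adjusted p = 0.0588). A second row with this symbol overlaps it by 783 exon bases and held 10 and 15 counts with METTL14 overexpression, against 1 and 5 counts in the controls (1.98, SE 0.734, edgeR adjusted p = 0.0535).

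Other proteins of the splicing machinery, from lists outside the symbol pattern, were also lower in many cases. Of 25 further proteins of the major snRNPs 20 were lower and none higher, with a median log2 fold change of -0.49. DHX15, a helicase that disassembles spliceosomes, was at -0.91 (SE 0.0943), PPIH, a cyclophilin of U4/U6, at -1.29 (SE 0.141) and DDX46, a helicase of U2 binding, at -1.01 (SE 0.11). Named after their values were seen, SNRNP70, the U1-70K protein, had 235 and 246 CPM as means with METTL14 overexpression and in the controls (-0.07, edgeR adjusted p = 0.578), and SNRNP200, the U5 helicase beside PRPF8, had 599 and 595 CPM (0.01, edgeR adjusted p = 0.955). PRPF8 and SNRNP200 of U5 were thus both not called, and EFTUD2, the U5 GTPase and also named after its value was seen, was lower (-0.73, edgeR adjusted p = 0.00614). Other U5 proteins, named in the same way, were lower too. They were SNRNP40 (-0.72, edgeR adjusted p = 0.00127), TXNL4A (-0.59, edgeR adjusted p = 0.00215) and DDX23 (-0.43, edgeR adjusted p = 0.0314). CD2BP2 of U5 was not called (-0.30, edgeR adjusted p = 0.160).

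Of 22 genes of snRNP assembly 14 were lower and 1 higher, 8 of the lower ones beyond 1.5-fold (36.4%, against 10.7% of all genes). The lower ones include SMN1 (-0.59) and SMN2 (-0.63), near-identical copies between which the split of reads is uncertain. WDR77, a partner of the methyltransferase PRMT5 that prepares Sm proteins for assembly, averaged 18.3 CPM with METTL14 overexpression and 76.5 CPM in the controls (log2 fold change -2.06, SE 0.198, edgeR adjusted p = 0.000242). NCBP1, a subunit of the cap-binding complex, was at -1.17 (SE 0.104) and TGS1, which trimethylates the snRNA cap, at -1.05 (SE 0.12). Of 17 genes of the Prp19 complex and related factors 12 were lower and 1 higher, with PPIL1 at -1.21 (SE 0.116), CDC5L at -1.02 (SE 0.0999) and CWC15 at -1.14 (SE 0.134). Beside the 28.1% of all genes called lower, the shares were 63.6% in the assembly list and 70.6% in the Prp19 list, with no test of the difference.

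The minor spliceosome and the decay factors gave smaller shares. Of 9 proteins of U11 and U12, the snRNPs of the minor spliceosome, 3 were lower, a share of 33.3% that lies near that of all genes. One of them, SNRNP25, fell to a mean of 11.4 CPM with METTL14 overexpression, against 44.1 CPM in the controls (log2 fold change -1.96, SE 0.126, edgeR adjusted p = 9.2e-05), and CENATAC was at -0.63 (SE 0.168) and PDCD7 at -0.38 (SE 0.117). Of 8 partners of the cytoplasmic LSM ring in mRNA decay 1 was lower, the helicase DDX6 (-0.51, SE 0.103, edgeR adjusted p = 0.00477), and PATL1, a scaffold that binds the ring, was at 0.21 (edgeR adjusted p = 0.108). The numbers lower in these lists moved with 1 library left out, and the share of all genes called lower moved too. Both are given at the end.

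**Figure D4:**
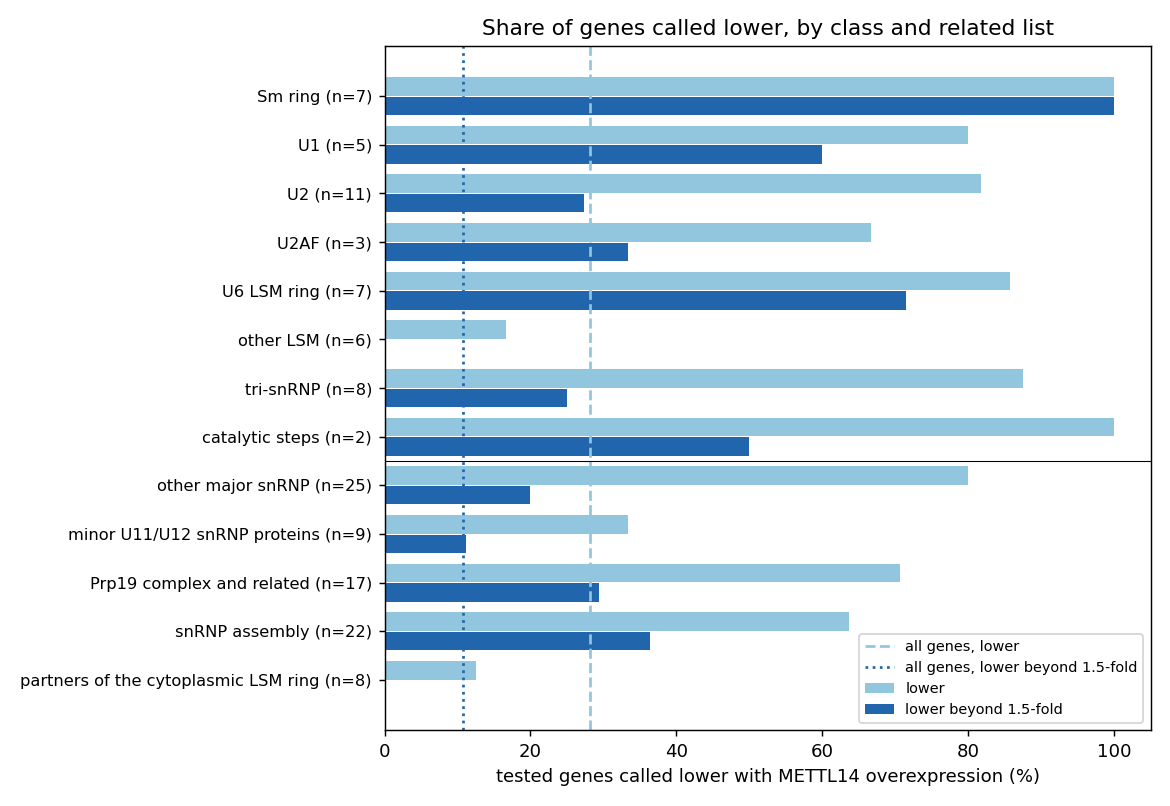
The share of tested genes called lower with METTL14 overexpression (x axis, in percent) is given for each class and each related list, in light bars for the plain test and dark bars for the test beyond 1.5-fold. Vertical lines mark the shares among all 12700 genes, 28.1 and 10.7%, which the other LSM genes and the decay partners do not reach.

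Across the 49 genes the log2 fold change had a Pearson correlation of 0.21 with the log2 length of the principal transcript and of 0.21 with its GC content, and the values over 12653 genes tested were 0.13 and 0.19. These describe genes measured in the same 4 libraries. Of the 22 genes with a transcript under 2000 bases 18 were lower (median log2 fold change -0.82), and of the 27 longer ones 20 were lower (-0.68). Removing the trend of all genes on length and GC content, a setting chosen after the data were seen and given without a test, left every gene called lower below 0 except SF3B6 (0.05). It also moved SNRPC from -1.22 (SE 0.115) to -0.95 and SF3A3 from -1.06 (SE 0.0993) to -1.17. In the Sm ring it gave -0.82 for SNRPF, -0.68 for SNRPE and -0.66 for SNRPG, smaller by more than 1.5-fold on the log2 scale, and -1.23 for SNRPD1 and -1.08 for SNRPB. In U2, SNRPA1 came to -0.23, SNRPB2 to -0.50 and SF3B5 to -0.40, smaller than without the correction, and SF3B3 to -0.97, larger. LSM8 came to -0.04 and PRPF39 to -0.05, near 0, whereas LSM3 came to -1.62 and PRPF8 to -0.67. PRPF40B came to 0.35.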

How the data were processed

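Poly(A) RNA of 4 libraries was sequenced, 2 with METTL14 overexpression and 2 controls. The authors deposited expected counts per gene and library, 10.8 to 11.6% of them not whole, over 20323 rows. The submitters' processing notes name fastp, Bowtie2, HISAT2, StringTie, RSEM and the build hg18, with no role or version, and no source used here states the strand setting. Of the row identifiers 20171 are in GENCODE 29, which is on GRCh38, so hg18 may not be the build of the counts. Rows with a gene identifier but no symbol held 0.0229 to 0.0366% of counts and stayed in the fit, which was made on rows. Counts were rounded, and a member symbol with several rows (4 symbols) was represented by the row of highest mean count.

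edgeR 4.0.16 (R 4.3.3) gave TMM scaling, filterByExpr with a minimum count of 10, the robust quasi-likelihood test and glmTreat against 1.5-fold, both adjusted by Benjamini-Hochberg over 12700 genes at 0.05. The SE of a log2 fold change was taken from the F statistic. The common coefficient of variation was 10.8%, and 2 libraries a group limit the precision. Alternatives included DESeq2 1.42.0, limma 3.58.1 (voom), other scalings and filters, the replicate block and leaving out each library. Trends on length and GC content were removed as loess fits with a span of 0.5, added after the data were seen. On simulated data the procedure missed most changes of 1.5-fold and called unchanged genes at more than the nominal rate, so calls of small fold are the least certain. The simulation changed 200 genes, far fewer than were called in these data, so its rates may not carry over.

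Exon overlap and transcript length came from GENCODE 29 (GRCh38), which held 20171 of the row identifiers, and promoters from RefSeq (GRCh38.p14). No protein sequences were used here. Members and lists were chosen with earlier results of these data known. Library values are given for up to 4 genes of smallest p in a class and for those not called, and 3 genes of smallest p are named from each related list. XPC, FMNL3, FKBP3, GUCD1, GGT1, IGFLR1 and PSENEN are given because their exons overlap those of a member. Not every such overlap is described. Among others, SF3A2 shares 398 exon bases with PLEKHJ1, PRPF31 shares 266 with TFPT and SNRPB shares 256 with ZNF343. The part of such reads was not tested. 1 member is counted in the totals and is not reported here.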

Additional observations from a re-analysis of the deposited data

How the results depend on the processing

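The number of the 49 genes called lower, 38, lay between 36 and 39 under 10 other settings, and between 30 and 42 with 1 library left out, where the share of all genes called lower also moved, to 18.2% and 18.7% without a METTL14 overexpression library and 33.7% and 35.9% without a control. Genes higher numbered 2, against 1 with DESeq2 and 0 to 3 with 1 library left out. Genes lower beyond 1.5-fold numbered 22, with 20 to 23 under the other edgeR settings and 18 to 26 with 1 library left out, and 0 were higher beyond it in each of these. That test was not run with DESeq2 or limma-voom. The log2 ratio of the summed LSM ring of U6 was -0.905, and -0.855 on library totals. SF3B2, not called at -0.02, turned positive on library totals (0.0319) and with a filter of 5 CPM (0.0068), and ranged over -0.1688 to 0.1502 with 1 library left out. SF3B6 turned positive (0.0532) once the trend on length and GC content was taken off. The cause was not tested. With 1 library left out, the genes lower numbered 12 to 23 of the 25 further snRNP proteins, 1 to 5 of the minor snRNP proteins, 6 to 13 of the Prp19-related genes, 12 to 17 of the assembly genes and 0 to 2 of the decay partners. With the replicate block 39 were lower, 2 higher and 22 lower beyond 1.5-fold, and SF3B1 was called (-0.27, edgeR adjusted p = 0.034). Same-numbered libraries had a deviation correlation of 0.11 over all genes tested, and replicate 1 differed from replicate 2 in the same direction in both groups for 33 of the 49 genes. With 2 pairs, and no label that ties a number to an experiment, this does not settle whether the numbers pair the libraries. No scaling moved the median of all genes by more than 0.1.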
